A study of Mus musculus with 3 samples.

Results

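The genes described here are the 10 subunits of the AMPA and NMDA glutamate receptors listed by symbol, 4 of the AMPA type (Gria1 to Gria4) and 6 of the NMDA type (Grin1, Grin2a, Grin2b, Grin2c, Grin2d and Grin3a). They were listed by gene family, with earlier results of these data known, and all 10 were found among the 17992 gene symbols counted. RNA from the brain of wild-type adults of the C57BL/6 strain was sequenced in 3 groups, with 1 library per group. The groups were sham, vehicle (the model with the middle cerebral artery occluded) and AGNHW (Angong Niuhuang Wan, a traditional Chinese preparation, given at 3 mg per g per day). The labels do not say that the AGNHW mice were occluded, which part of the brain was taken, how long after surgery, or how many mice were pooled. No difference below has a replicate check, so "higher" and "lower" describe these libraries and no p-value is given.

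AMPA and NMDA receptors are tetrameric cation channels opened by glutamate, the main excitatory transmitter of the brain. AMPA receptors carry the fast synaptic current, and the subunit GluA2 (Gria2) makes them nearly impermeable to calcium when its pore residue has been changed by RNA editing. NMDA receptors need the obligatory GluN1 subunit (Grin1) together with GluN2 or GluN3 subunits, bind glycine or D-serine as well as glutamate, and pass calcium. Their overactivation after a blocked artery is a textbook route to neuronal injury.

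The coding sequence at the pore is shown because it is where the subunits differ in ion selectivity and because it shows how similar the genes are for read counting. Each line gives 33 bases of a GENCODE M21 coding transcript, 5′ to 3′, with the codon of the pore site in capitals: the glutamine of AMPA subunits (the Q/R site) and the asparagine of the pore loop of NMDA subunits (the N site).
Gria1: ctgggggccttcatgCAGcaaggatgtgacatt
Gria2: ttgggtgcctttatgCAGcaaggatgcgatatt
Gria3: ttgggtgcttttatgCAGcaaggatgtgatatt
Gria4: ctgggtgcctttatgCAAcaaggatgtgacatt
Grin1: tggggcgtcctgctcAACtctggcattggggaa
Grin2a: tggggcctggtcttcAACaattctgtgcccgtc
Grin2c: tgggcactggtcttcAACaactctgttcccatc
Grin2d: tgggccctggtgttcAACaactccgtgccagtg
Gria2 and Gria3 differed at 2 of these 33 bases, and Gria1 differed from each of them at 5. The reference codon of Gria2 is CAG, which editing of the RNA turns into an arginine codon. The read counts give no measure of that editing. Over whole transcripts the genes were easy to tell apart: of all stretches of 50 bases in a member's coding transcripts, at most 0.182% (Gria3) also occurred in another member. For Gria1 and for each of the 6 NMDA genes the number shared was 0. The length of the reads was not stated in any label or file header.

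The annotation shows little overlap of the members' exons with other genes, apart from Grin1 and Grin2d. The antisense gene Grin1os covers 13.5% of the exon bases of Grin1 and had 444 counts in sham, 391 in vehicle and 487 in AGNHW. Gm45441, on the opposite strand, covers 9.66% of the exon bases of Grin2d and had 35, 37 and 46 counts in the same order. The strand setting of the counting is unknown, so reads of these overlaps cannot be told apart. Both partners were counted far below the subunits. Those counts do not measure reads of the shared bases that may have been assigned to neither gene.

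Depth was similar, with totals of 18286151 for sham, 15718594 for vehicle and 18184691 counts for AGNHW. Levels are given as CPM, the usual scaling of counts to library size, after scaling by the trimmed mean of M-values (TMM). Neuronal genes were present in all 3: the 16 pan-neuronal markers summed to 10064, 11112 and 10268 CPM in sham, vehicle and AGNHW, none at 0. The vehicle library stood apart in its pituitary transcripts, with 3745 CPM over the 7 counted markers against 4.41 CPM in sham and 4.60 CPM in AGNHW. Of these 7 markers, 3 were at 0 in sham and 1 in AGNHW. The 6 counted brainstem and monoamine markers summed to 16.7, 35.8 and 29.2 CPM in sham, vehicle and AGNHW, and the 5 counted red cell markers to 52.8, 163 and 65.1 CPM. In the same order, the 6 oligodendrocyte markers summed to 7057, 9238 and 8604 CPM, and the 8 astrocyte markers to 3737, 3565 and 3590 CPM. The 8 microglia markers summed to 341, 317 and 326 CPM. Some astrocyte and microglia markers differed more than these sums, as counted further on. Tissue makeup therefore differed between the libraries, and its part in the values below was not tested. In such bulk samples fewer cells of a type and less RNA per cell cannot be told apart.

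Between vehicle and sham, a set of AMPA and NMDA genes was lower in vehicle and none was higher by the size rule. The rule asks for a CPM ratio of 1.5 or more in either direction, a mean over the libraries of 1 CPM or more and a 95% counting interval that leaves out 1. Gria2, Gria3, Grin2a and Grin2b passed as lower, which is 4 of 10 members, where 14.2% of 15557 genes compared passed as lower. As higher, 0 of 10 members passed, where 8.66% of the genes did. Among the genes of at least 10 CPM, a class that holds all the members, 12.2% passed as lower and 7.03% as higher. With plain CPM, where Gria4 passed too, 18.2% of all genes passed as lower and 5.72% as higher. All 4 calls were lost when the ratio was corrected for transcript length and GC content, as described further on.

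The plot of levels shows each gene in each library.

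**Figure D1:**
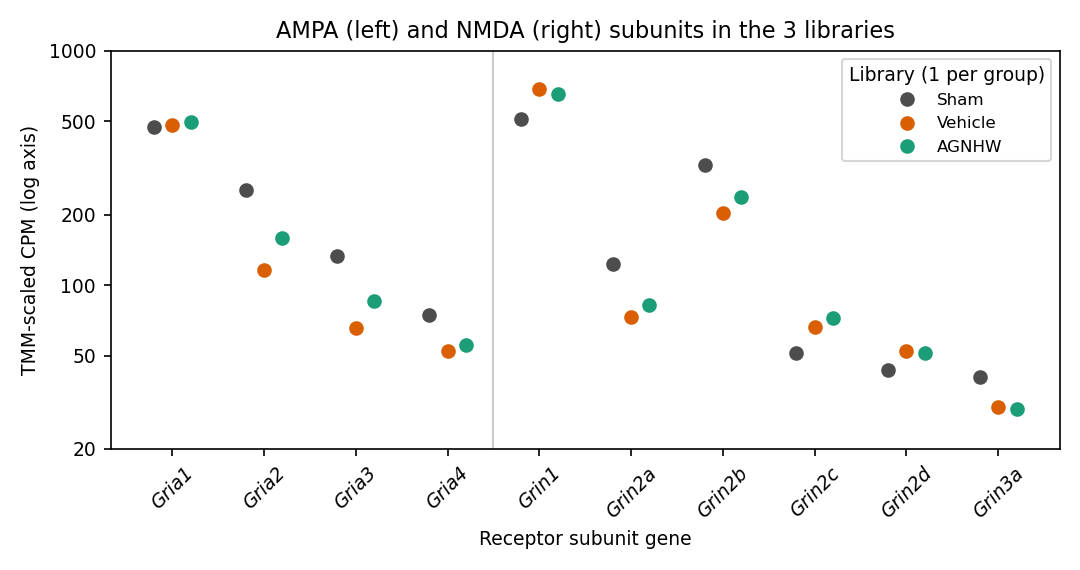
TMM-scaled CPM (log axis) of the 10 receptor subunit genes, with 1 point per library and no error bar because each group has 1 library. Gria2 and Gria3 stand highest in sham and lowest in vehicle (255 against 116 CPM for Gria2), while the 3 points of Gria1 lie between 474 and 496 CPM and Grin1 is lowest in sham.

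Among the AMPA subunits, Gria2, which sets the calcium permeability of the receptor, had 4806 counts in sham, 1760 in vehicle and 2894 in AGNHW. These are 255, 116 and 158 CPM. Sham was the highest library and vehicle the lowest. The vehicle level was 2.21-fold lower than sham (counting interval 2.09 to 2.33).

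Gria3, the X-linked GluA3 subunit that commonly pairs with GluA2, had 2516, 998 and 1558 counts in sham, vehicle and AGNHW, or 134, 65.6 and 85.3 CPM. It had the same order of libraries as Gria2, with vehicle 2.04-fold below sham (1.89 to 2.19). Gria4, the GluA4 subunit found on fast-spiking interneurons among other cells, had 1404, 800 and 1012 counts, or 74.6, 52.6 and 55.4 CPM. Its vehicle level was 1.42-fold lower than sham (1.30 to 1.55), short of the size rule.

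Gria1, the GluA1 subunit whose trafficking changes with synaptic plasticity, did not share this pattern. It had 8919, 7368 and 9065 counts in sham, vehicle and AGNHW, which are 474, 484 and 496 CPM. The ratio of vehicle to sham was 1.02 (0.991 to 1.05), so no difference was detectable at this depth. Its sign depended on the scaling: the log2 ratio was 0.03 with TMM and -0.06 with plain CPM.

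Among the NMDA subunits, the obligatory Grin1 had the most counts of the 10 genes and its lowest level in sham. It had 9660 counts in sham, 10408 in vehicle and 11983 in AGNHW, or 513, 684 and 656 CPM. The ratio of vehicle to sham was 1.33 (1.30 to 1.37), short of the size rule.

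The 2 main glutamate-binding subunits of the forebrain were lower in vehicle. Grin2a, the GluN2A subunit that gives mature synapses their short currents, had 2324, 1113 and 1508 counts in sham, vehicle and AGNHW, or 124, 73.2 and 82.6 CPM. Its vehicle level was 1.69-fold lower than sham (1.57 to 1.81). Grin2b, the GluN2B subunit that dominates in early development and outside synapses, had 6139, 3084 and 4358 counts, or 326, 203 and 239 CPM, and was 1.61-fold lower in vehicle (1.54 to 1.68).

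The rarer subunits split in direction, with none past the size rule. Grin2c, the GluN2C subunit known from cerebellar granule cells and astrocytes, had 969, 1011 and 1317 counts in sham, vehicle and AGNHW, or 51.5, 66.5 and 72.1 CPM. Grin2d, the GluN2D subunit of interneurons and deep brain regions, had 816, 799 and 941 counts, or 43.4, 52.5 and 51.5 CPM. Both were lowest in sham, with vehicle-to-sham ratios of 1.29 (1.18 to 1.41) for Grin2c and 1.21 (1.10 to 1.34) for Grin2d. Grin3a, the glycine-binding GluN3A subunit that lowers calcium flux, had 762, 460 and 542 counts, or 40.5, 30.2 and 29.7 CPM. Its vehicle level was 1.34-fold lower than sham (1.19 to 1.51).

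Over the members, the median log2 ratio of vehicle to sham was -0.46, beside a median of 0.01 over all genes compared. The 4 AMPA genes had a median of -0.77 and the 6 NMDA genes one of -0.072. Summed over subunits, AMPA transcripts stood at 938, 718 and 796 CPM in sham, vehicle and AGNHW, while NMDA transcripts stood at 1098, 1109 and 1131 CPM. The count ratio of AMPA to NMDA transcripts was therefore 1.32-fold lower in vehicle than in sham (1.28 to 1.36).

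**Figure D2:**
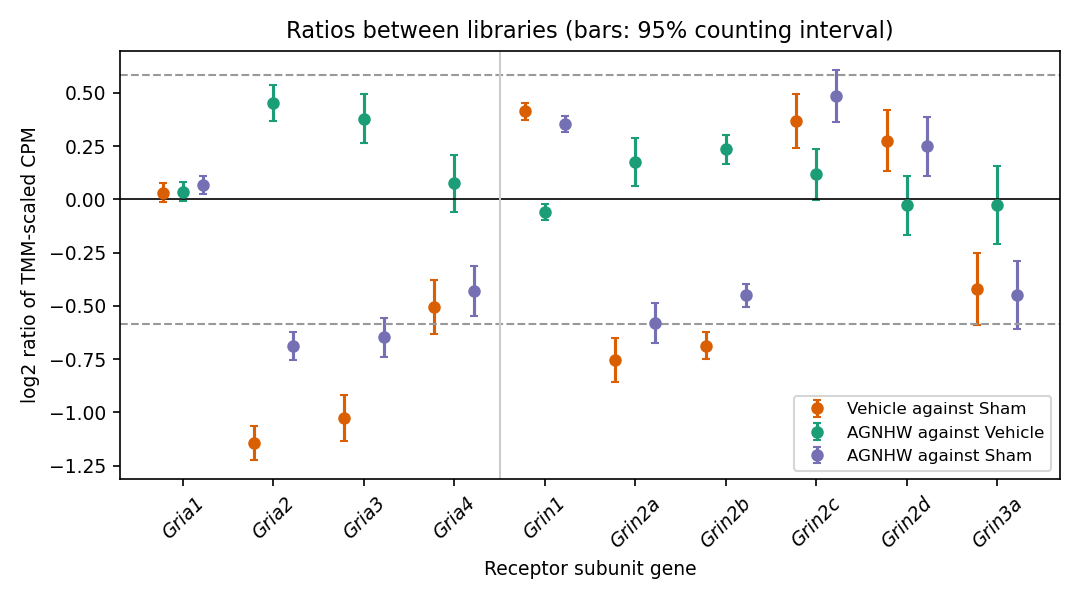
log2 ratio of TMM-scaled CPM for each subunit gene in the 3 comparisons, with bars for the 95% counting interval and dashed lines at a ratio of 1.5 either way. Gria2, Gria3, Grin2a and Grin2b lie below the lower line for vehicle against sham, and no green point (AGNHW against vehicle) crosses a line.

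Between AGNHW and vehicle, which compares mice given the preparation with the vehicle group of the model, no subunit passed the size rule in either direction. That is 0 of 10 as higher, where 4.01% of 15558 genes compared passed, and 0 of 10 as lower, where 2.56% did. Among genes of at least 10 CPM the shares were 1.36% and 0.723%, and with plain CPM, where again no member passed, 5.19% of genes passed as higher and 1.99% as lower. The largest difference was that of Gria2, with an AGNHW-to-vehicle ratio of 1.37 (1.29 to 1.45), and Gria3 followed at 1.30 (1.20 to 1.41). Grin2b had a ratio of 1.18 (1.12 to 1.23) and Grin2a one of 1.13 (1.04 to 1.22). These intervals lie above 1 but cover counting error only. The ratio of Grin1 was 0.959 (0.934 to 0.984). The signs for Grin2a, Grin2b and Grin1 turned under the length and GC correction, to log2 ratios of -0.11, -0.0018 and 0.014.

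The other 5 subunits had AGNHW-to-vehicle intervals that held 1. The ratios were 1.02 for Gria1, 1.05 for Gria4, 1.08 for Grin2c, 0.981 for Grin2d and 0.981 for Grin3a. The median log2 ratio of the members was 0.10, beside 0.0021 over all genes compared.

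Between AGNHW and sham, Gria2 and Gria3 passed the size rule as lower. That is 2 of 10 members, where 5.47% of the 15558 genes passed as lower, and 0 of 10 passed as higher, where 3.32% did. Among genes of at least 10 CPM, 3.1% passed as lower and 1.18% as higher. With plain CPM, where Grin2a passed too, 6.42% of all genes passed as lower and 2.96% as higher. Gria2 was 1.61-fold lower in AGNHW than in sham (1.54 to 1.69) and Gria3 1.57-fold lower (1.47 to 1.67). Grin2a lay just short of the rule, at 1.496-fold lower (1.40 to 1.60), and Grin2b was 1.37-fold lower (1.31 to 1.42). Gria4 and Grin3a were 1.35-fold and 1.36-fold lower.

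On the other side, Grin2c had an AGNHW-to-sham ratio of 1.40 (1.29 to 1.52), Grin1 of 1.28 (1.24 to 1.31) and Grin2d of 1.19 (1.08 to 1.31). Gria1 had a ratio of 1.05 (1.02 to 1.08). The members' median log2 ratio was -0.44, beside -0.00067 over all genes. The 3 comparisons share libraries, each library being used in 2 of them, so they are not independent of one another.

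Ratios of counts between subunit genes within a library do not depend on how libraries are scaled. Their size depends on the lengths of the transcripts, so they do not give the makeup of a receptor. The fold of a ratio of 2 genes between libraries is free of those lengths. The ratios are first given as counted. Gria1 had 1.86 counts for each count of Gria2 in sham, 4.19 in vehicle and 3.13 in AGNHW. The vehicle ratio was 2.26 times that of sham (2.12 to 2.40), and AGNHW was 1.34-fold below vehicle (1.25 to 1.43). By contrast, the ratio of Gria3 to Gria2 was 0.524, 0.567 and 0.538, with a vehicle-to-sham fold of 1.08 (0.989 to 1.19). The proportion of these 2 genes did not differ between the libraries beyond counting error.

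Gria4 had 0.292, 0.455 and 0.350 counts for each count of Gria2 in sham, vehicle and AGNHW. Its proportion was 1.56 times higher in vehicle than in sham (1.40 to 1.72). As a share of all AMPA counts, Gria1 took 50.5% in sham, 67.4% in vehicle and 62.4% in AGNHW, and Gria2 took 27.2%, 16.1% and 19.9%. Per kb of transcript these shares were 57.1%, 72.3% and 68.1% for Gria1 and 16.5%, 9.24% and 11.6% for Gria2.

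For NMDA receptors, the ratio of Grin2a to Grin2b, which in development moves from GluN2B to GluN2A, was 0.379 in sham, 0.361 in vehicle and 0.346 in AGNHW. The vehicle-to-sham fold was 0.953 (0.877 to 1.04), so the balance of these 2 subunits did not differ between vehicle and sham beyond counting error. In AGNHW it was 0.914 times that of sham (0.848 to 0.986). Against the obligatory Grin1 both were lower. Grin2a had 0.241, 0.107 and 0.126 counts for each count of Grin1 in sham, vehicle and AGNHW, 2.25-fold lower in vehicle (2.08 to 2.43). Grin2b had 0.636, 0.296 and 0.364, 2.14-fold lower in vehicle (2.04 to 2.26). The ratio of Grin2c to Grin1 was 0.100, 0.0971 and 0.110, with a vehicle-to-sham fold of 0.968 (0.883 to 1.06). The AGNHW ratio was 1.13 times that of vehicle (1.04 to 1.23) and 1.10 times that of sham (1.004 to 1.20).

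These count ratios are free of library scaling but not of the trend on transcript length and GC content described next. With the counts corrected for it, the vehicle ratio of Gria1 to Gria2 was 1.51 times that of sham, in place of 2.26. That of Grin2a to Grin1 was 1.29-fold lower and that of Grin2b to Grin1 1.30-fold lower, and the AMPA to NMDA ratio was 1.05-fold lower. The ratio of Gria3 to Gria2 moved to 0.856 times that of sham, and that of Gria4 to Gria2 to 1.19 times.

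Levels of different genes can be set side by side only per length. Per kb of coding sequence, Grin1 and Gria1 led in each library, at 178 and 174 CPM per kb in sham, where their counting intervals overlapped, and at 238 and 178 CPM per kb in vehicle. In sham, Gria2 (96.4 CPM per kb), Grin2b (73.4) and Gria3 (50.2) came next, each apart from its neighbour. Grin2a and Gria4, at 28.1 and 27.6 CPM per kb, did not differ beyond counting error, and Grin2c (13.9), Grin3a (11.9) and Grin2d (10.9) closed the order.

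In vehicle, Grin2b (45.6 CPM per kb) and Gria2 (43.7) did not differ beyond counting error. Grin2c (17.9) overlapped there with Gria4 (19.4) and Grin2a (16.7), and Grin3a (8.88) was the lowest. In AGNHW the order was again Grin1 (228 CPM per kb), Gria1 (182), Gria2 (59.8), Grin2b (53.7) and Gria3 (32.02). Per kb of the longest annotated transcript the order behind Grin1 and Gria1 changed, since that transcript of Grin2b runs to 24060 bases and that of Grin2a to 14634. Grin2b was then 6th in sham at 13.6 CPM per kb, and Grin2a 8th at 8.44. On that length the intervals of Grin1 and Gria1 in sham did not overlap, at 120 CPM per kb (118 to 122) and 85.5 (83.7 to 87.3).

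What the lower subunits share, outside the choice of genes, is a transcript that is AU-rich and mostly long. The GC content of the longest coding transcript was 36.8% for Gria2, 43.0% for Gria3, 44.8% for Grin2a and 45.7% for Grin2b. Gria4, which was lower but short of the rule, lay within that range at 44.3%. It was 59.4% for Grin1, 62.1% for Grin2c and 65.0% for Grin2d, the 3 NMDA genes that were lowest in sham. Gria1 (48.5%) and Grin3a (49.2%) lay between these groups. Across the 10 genes the rank correlation of the vehicle-to-sham ratio was 0.90 with GC content and -0.64 with transcript length. The points share their 2 libraries, and no p is given.

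The same gradient ran through the rest of the libraries. Over 9939 genes of at least 10 CPM the rank correlations were 0.63 with GC content and -0.59 with length. When these genes were split into 10 equal bins, the bin of lowest GC content, to which Gria2 belongs, had a median log2 ratio of -0.56, and 46.2% of its genes passed as lower. In the bin of highest GC content, which holds Grin1, Grin2c and Grin2d, the median was 0.34 and 0.503% passed as lower. By length, the bin of longest transcripts, which holds Gria2, Grin2a, Grin2b and Grin3a, had a median of -0.45.

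**Figure D3:**
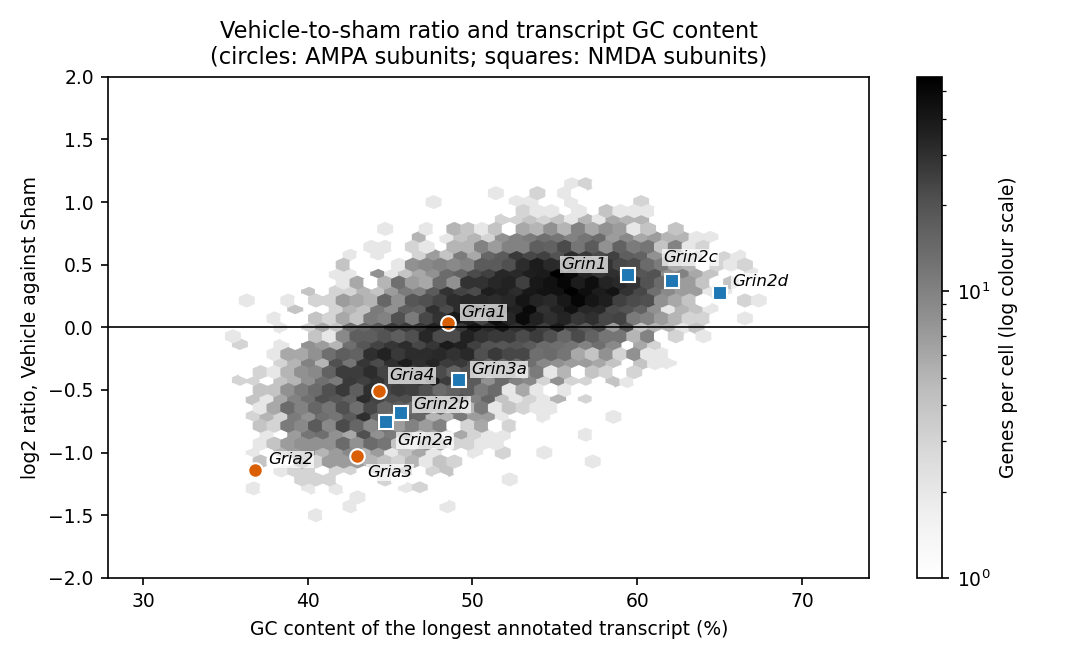
log2 ratio of vehicle to sham against the GC content (%) of the longest annotated transcript, for genes of at least 10 CPM (grey cells, darker where more genes fall, limited to log2 ratios between -2 and 2) and the 10 subunits. The subunits follow the slope of the grey cloud, from Gria2 at 36.8% GC to Grin2d at 65.0% GC.

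A smooth trend of the vehicle-to-sham log2 ratio on both properties took up 50.02% of its variance over 9941 genes. After it was subtracted, 0 of 10 members passed the size rule as lower and 0 as higher, where 7.13% and 4.1% of genes did. The corrected log2 ratio was -0.28 for Gria2 (-1.14 before), -0.51 for Gria3 (-1.03 before), -0.11 for Grin2a (-0.76 before) and -0.12 for Grin2b (-0.69 before). Gria3 then had the lowest value of the members, in place of Gria2. Gria1 and Grin1 had corrected values of 0.31 and 0.26, and the members' median moved from -0.46 to -0.068.

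For AGNHW against sham the trend explained 40.3% of the variance, and 0 of 10 members passed in either direction after correction, where 3.39% of genes passed as lower and 2.55% as higher. Gria2 and Gria3 then had log2 ratios of -0.16 and -0.37, and Grin2c had the highest, 0.42. For AGNHW against vehicle it explained 28.8%, and the corrected values of Gria2 and Gria3 were 0.12 and 0.14. Again 0 of 10 members passed in either direction, where 1.59% of genes passed as lower and 3.15% as higher. Whether the gradient arose in the tissue or in the handling and sequencing of 1 library each was not tested.

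**Figure D4:**
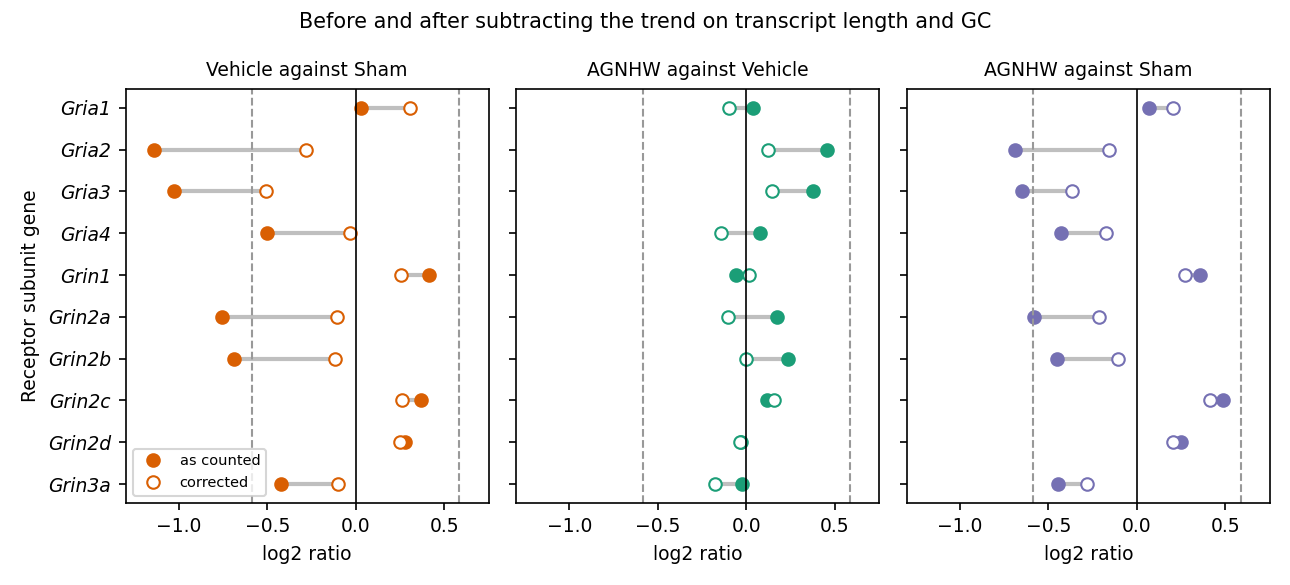
log2 ratio of each subunit gene as counted (filled) and after subtraction of the trend on transcript length and GC content (open), in the 3 comparisons, with dashed lines at a ratio of 1.5 either way. In vehicle against sham, Gria2 moves from -1.14 to -0.28 and Gria3 from -1.03 to -0.51, and every open point lies inside the dashed lines.

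The promoters of the 2 genes at the ends of the vehicle-to-sham range, Gria2 and Grin1, are shown for comparison with their transcripts, from RefSeq on GRCm38.p6. Sequences of this kind were matched for 5 of the 10 members (Gria2, Gria4, Grin1, Grin2c and Grin2d). The counts themselves were made on mm9, so these positions are given for orientation only. Each runs from 250 bases before to 50 bases after the annotated start, 5′ to 3′ on the gene's strand, with the GC box GGGCGG, searched on both strands, in capitals.
Gria2 (chr3:80802786-80803085, minus strand): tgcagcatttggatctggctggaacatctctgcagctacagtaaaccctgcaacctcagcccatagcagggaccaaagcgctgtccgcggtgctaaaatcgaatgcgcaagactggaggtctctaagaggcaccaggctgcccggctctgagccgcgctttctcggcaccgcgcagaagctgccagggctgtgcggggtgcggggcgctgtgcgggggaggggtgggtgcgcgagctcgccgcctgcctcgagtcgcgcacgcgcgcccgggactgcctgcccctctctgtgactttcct
Grin1 (chr2:25319138-25319437, minus strand): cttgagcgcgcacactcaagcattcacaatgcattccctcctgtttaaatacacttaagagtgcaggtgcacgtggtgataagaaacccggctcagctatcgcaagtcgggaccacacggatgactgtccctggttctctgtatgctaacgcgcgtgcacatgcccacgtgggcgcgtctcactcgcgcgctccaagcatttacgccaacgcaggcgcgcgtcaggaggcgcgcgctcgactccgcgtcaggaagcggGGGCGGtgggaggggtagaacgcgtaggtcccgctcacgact
The promoter of Gria2 had a GC content of 65.7% and that of Grin1 one of 60.7%, so the promoter of Gria2 was richer in GC than that of Grin1, the reverse of the order of their transcripts. The median over 32851 promoters of this length was 52.7%. The GC box occurred 0 times in Gria2, 1 time in Grin1 and 3 times in Grin2c, and it was found in 35.7% of all these promoters. The motif TGACGTCA, searched on both strands, was in none of the 5 and in 1.79% of all promoters. A match is a description of letters, not a site of binding.

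Genes that work with the receptors were taken as 6 lists of 81 genes in all, of which 80 were compared. Between vehicle and sham, 12 passed the size rule as lower (15%, beside 14.2% over all genes) and 2 as higher (2.5%, beside 8.66%). The share as lower was thus near that of all genes. With AGNHW against vehicle, 0 passed as lower and 1 as higher (1.25%), where 2.56% and 4.01% of all genes did. With AGNHW against sham, 6 passed as lower (7.5%, beside 5.47%) and 2 as higher (2.5%, beside 3.32%).

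Of the other ionotropic receptor genes, 3 of 9 passed as lower in vehicle and 0 as higher, where 14.2% and 8.66% of all genes did. Grik2, a kainate receptor subunit, had 728 counts in sham, 266 in vehicle and 560 in AGNHW. It was 2.21-fold lower in vehicle than in sham (1.92 to 2.56), close to the value of Gria2, and it was the gene that passed as higher in AGNHW against vehicle, at 1.75-fold (1.51 to 2.04). Neto2 and Neto1, auxiliary proteins of kainate receptors, were 2.07-fold (1.77 to 2.44) and 1.86-fold (1.69 to 2.06) lower in vehicle. They were also lower in AGNHW than in sham, 1.71-fold (1.49 to 1.97) and 1.58-fold (1.45 to 1.73). After correction none of these calls remained. Another gene of the list, 1 in number, then passed as higher in vehicle against sham, where 4.1% of all genes did.

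Most AMPA auxiliary and assembly genes did not pass the size rule between vehicle and sham. Of 22, 2 passed as lower in vehicle and 0 as higher, where 14.2% and 8.66% of all genes did. The log2 ratios ran from -0.86 to 0.55, 8 below 0 and 14 above, with a median of 0.034. After the length and GC correction the median was -0.12, beside -0.16 for the AMPA subunits. Frrs1l, needed for assembly of AMPA receptors in the endoplasmic reticulum, was 1.82-fold lower (1.71 to 1.92), and Shisa9, an auxiliary subunit that modulates desensitisation, 1.55-fold lower (1.40 to 1.72). The level of Cacng8, a transmembrane AMPA receptor regulatory protein, was 78.2, 79.4 and 83.6 CPM in sham, vehicle and AGNHW, and Cacng2 (stargazin) stood at 92.0, 91.5 and 98.9 CPM. Cacng7 and Cnih2 were higher in vehicle but short of the rule, at 508 CPM against 382 in sham and 450 CPM against 323. In AGNHW against sham, Shisa8 passed as higher, at 1.51-fold (1.20 to 1.91) with 188 counts against 128. After correction Frrs1l, Shisa9 and Shisa8 no longer passed (log2 ratios of -0.28, -0.38 and 0.42). Nptx2, a pentraxin that clusters AMPA receptors, then passed as lower in vehicle at -0.75. Cacng8, Cacng2, Cacng7, Cnih2 and Nptx2 were chosen after their values were seen.

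In the postsynaptic scaffold, which holds the receptors at the synapse, 6 of 21 genes passed as lower in vehicle, where 14.2% of all genes did, and 1 as higher, with a median of -0.25. Homer1, an adaptor with an activity-induced short form, was 2.71-fold lower (2.41 to 3.05). Lrrc7, which encodes densin, was 2.53-fold lower (2.16 to 2.96), and Dlgap2, which links PSD-95 to Shank proteins, 2.18-fold lower (1.92 to 2.48). After correction 4 of the 21 passed as lower, where 7.13% of all genes did, among them Dlgap2 with a corrected log2 ratio of -1.21, Lrrc7 with -0.96 and Homer1 with -0.73. The fourth was Grip1, which binds GluA2 and GluA3. The gene that passed as higher before correction was Homer3, at 13.4 CPM in sham and 20.3 CPM in vehicle. As higher, 1 passed after correction, a different gene, where 4.1% of all genes did. It was Dlg4 (PSD-95) at 0.62, which had not passed as counted, at 1104 CPM in sham and 1288 CPM in vehicle. Homer3 and Dlg4 were named after their values were seen.

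In AGNHW against sham, 4 of the 21 scaffold genes passed as lower, where 5.47% of all genes did. Lrrc7 was 1.998-fold lower (1.75 to 2.29), Homer1 1.84-fold (1.68 to 2.03), Grip1 1.58-fold (1.30 to 1.92) and Dlgap2 1.52-fold (1.37 to 1.69). Lrrc7, Grip1 and Dlgap2 also passed after correction, where 3.39% of all genes did, and Homer1 did not.

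**Figure D5:**
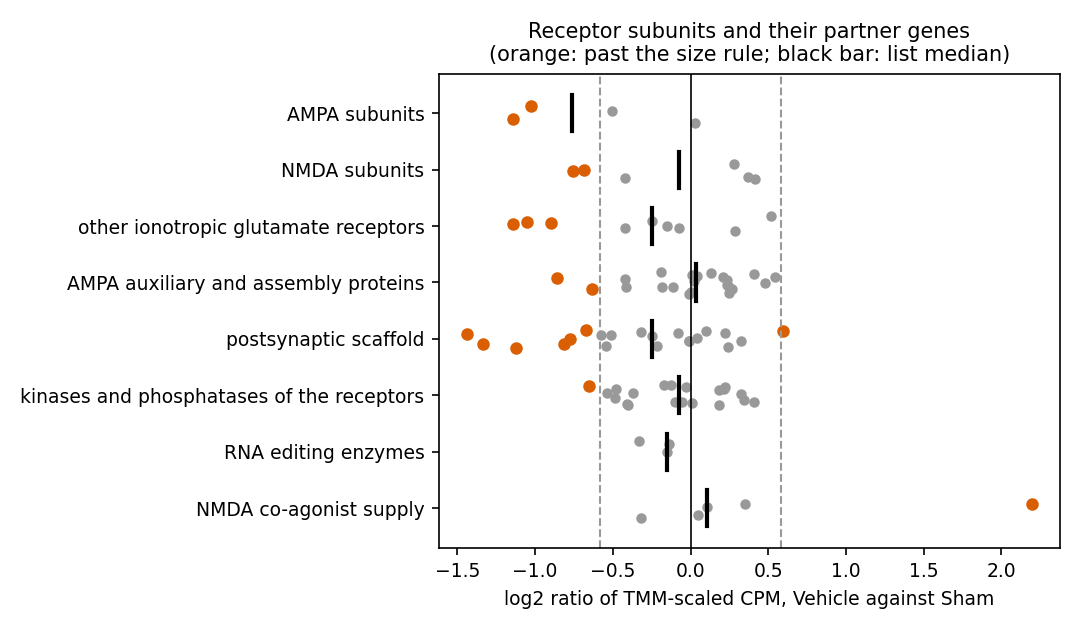
log2 ratio of TMM-scaled CPM, vehicle against sham, for the receptor subunits and the 6 lists of partner genes, with 1 point per gene, orange where the gene passed the size rule, a black bar at each list's median and dashed lines at a ratio of 1.5 either way. The AMPA subunits have the lowest median of the 8 rows, -0.77, and the AMPA auxiliary genes one of 0.034. After the length and GC correction, not drawn here, these medians were close, at -0.16 and -0.12.

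Among 20 kinases and phosphatases of the receptors, the median log2 ratio of vehicle to sham was -0.077. In vehicle 1 passed as lower and 0 as higher, where 14.2% and 8.66% of all genes did. That gene was Camk2d, a calcium/calmodulin kinase isoform, 1.57-fold lower (1.44 to 1.71), and it did not pass after correction (-0.16). The main forebrain isoform Camk2a, chosen after its values were seen, stood at 3563, 4042 and 3768 CPM in sham, vehicle and AGNHW. None of the 3 RNA editing enzymes passed in any comparison. Adarb1, the enzyme that edits the Gria2 pore codon, had 4806 counts in sham, 3525 in vehicle and 4272 in AGNHW, or 255, 232 and 234 CPM. Its spread over the libraries was small beside that of Gria2.

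Among 5 genes of co-agonist supply, 1 passed as higher in vehicle and 0 as lower, where 8.66% and 14.2% of all genes did. That gene was Dao, the D-serine-degrading oxidase known from hindbrain glia, with 10 counts in sham, 37 in vehicle and 27 in AGNHW, too few for the naming rule and named as the only gene of its list that passed. Dao also passed as higher in AGNHW against sham, at a log2 ratio of 1.48, where 3.32% of all genes did. After correction 1 gene of the list passed as higher in each of these 2 comparisons, where 4.1% and 2.55% of all genes did. Srr, which makes D-serine, had 834, 541 and 723 counts, or 44.3, 35.6 and 39.6 CPM.

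Of 16 pan-neuronal genes, 2 passed as lower and 1 as higher between vehicle and sham, where 14.2% and 8.66% of all genes did, with a median log2 ratio of 0.11. The 2 lower were Map2, a dendritic microtubule protein, 1.89-fold lower (1.82 to 1.95), and Elavl4, 1.55-fold lower (1.38 to 1.75). Neither passed after correction, with log2 ratios of -0.57 and -0.065. Of 8 excitatory markers, 1 passed as lower and 0 as higher, and of 8 inhibitory markers, 0 as lower and 1 as higher. Of 8 astrocyte markers, 2 passed as lower and 1 as higher, and of 8 microglia markers, 2 as lower and 0 as higher. These 2 glial lists had the same counts after correction, where 7.13% and 4.1% of all genes passed. Centred on the pan-neuronal median, 5 members were lower in vehicle, the added gene being Gria4. This centring takes the same 0.11 off every log2 ratio, and the share of all genes past the rule under it was not counted.

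The genes whose pattern over the 3 libraries was nearest to that of Gria2 were Strn3, Magi3 and Apc, among 10919 genes of at least 100 counts in every library. Likeness was the distance between the vehicle-to-sham and AGNHW-to-sham log2 ratios. It was 0.0101 for Strn3 (487, 179 and 295 counts in sham, vehicle and AGNHW), 0.0162 for Magi3 and 0.0279 for Apc. For Grin1 the nearest were Gm49327, Xylb and Ptk2b, the last a calcium-dependent tyrosine kinase that was also on the list of receptor kinases. Ptk2b had 11248, 12057 and 13979 counts at a distance of 0.00787. With 3 libraries a pattern has only 2 free values, so near matches are frequent.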

How the data were processed

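For each of the 3 mouse brain libraries (sham, vehicle, AGNHW) the authors deposited raw read counts, listed by gene symbol. The submitters' processing notes name HTSeq 0.6.0, TopHat2 2.0.12, Bowtie2 2.2.3 and build mm9. Settings, strandedness and annotation are not stated there. No listed gene summed to under 21 counts over the 3 libraries.

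Counts were scaled by TMM (edgeR 4.0.16, R 4.3.3), with factors of 1.03, 0.968 and 1.00 for sham, vehicle and AGNHW. Ratios carry exact conditional binomial 95% intervals, and ratios of count ratios carry normal-approximation intervals. Levels per kb carry exact Poisson intervals. All of these cover counting error only, not the spread between animals or preparations. They may be too narrow even for counting error, since sequenced reads that lack molecular identifiers may be copies of the same molecule. With 1 library per group no test was made, so the samples were compared by the size rule alone. Transcript length and GC content came from GENCODE M21 (GRCm38) for the longest coding transcript, matched by symbol for 97.6% of genes. The trend on both was fitted with mgcv 1.9.3 over genes of at least 10 CPM.

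The members, lists and rules were chosen with earlier results of these data known. Named partner genes were up to 3 per list and comparison with the largest ratio past the size rule and at least 50 counts in the higher library. Dao and, for AGNHW against sham, Dlgap2 fall outside it, as do genes said to be chosen after their values were seen. Pattern matches were sought for Gria2 and Grin1. The alternatives were 4 scalings or totals, centring on pan-neuronal genes, the trend correction, no low-count filter, a fold limit of 2 and a prior count of 5. Scripts ran in Python 3.11.15 (scipy 1.17.1, matplotlib 3.10.9, pandas 2.3.3, numpy 2.4.6), and DESeq2 1.42.0 gave its size factors. Pore sequences are shown for 8 of the 10 subunits, and the others are not reported here.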

Additional observations from a re-analysis of the deposited data

How the results depend on the processing

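The length and GC correction was the setting that moved most results. It took the members lower in vehicle than in sham from 4 to 0, those lower in AGNHW than in sham from 2 to 0, and the median log2 ratios to -0.068 (vehicle against sham), -0.019 (AGNHW against vehicle) and -0.13 (AGNHW against sham). The same correction, applied to the subunit count ratios as an alternative chosen after seeing the data, moved the folds of vehicle over sham to 1.51 (Gria1 to Gria2), 0.856 (Gria3 to Gria2), 1.19 (Gria4 to Gria2), 0.778 (Grin2a to Grin1), 0.771 (Grin2b to Grin1) and 0.956 (AMPA to NMDA). For AGNHW over sham the folds moved to 1.29, 0.866, 0.988, 0.715, 0.769 and 0.937 in the same order, of which Gria4 to Gria2 turned in direction. For AGNHW over vehicle Gria1 to Gria2 moved to 0.857, while Grin2a to Grin1 (0.921), Grin2b to Grin1 (0.989) and AMPA to NMDA (0.968) turned in direction. With a fold limit of 2, 2 members (Gria2 and Gria3) were lower in vehicle than in sham and 0 in AGNHW than in sham. With plain CPM, and when centred on pan-neuronal genes, 5 members were lower in vehicle than in sham and 3 in AGNHW than in sham. With plain CPM 18.2% of all genes passed as lower in vehicle and 5.72% as higher, against 14.2% and 8.66% with TMM. Shares of all genes were counted for TMM, plain CPM and the trend correction only, so the other counts of members have no share beside them. The DESeq2 size factors, the upper quartile, totals without pituitary, red cell and mitochondrial genes, no low-count filter and a prior count of 5 left the counts of members at 4, 0 and 2 as lower, and 0 were higher under any setting. No subunit past the size rule changed sign in the comparison where it passed under any of these alternatives. No paired analysis was possible because each group has 1 library. With 460 counts or more for every subunit in every library, depth limits these values less than the missing replicates.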
